A study of Mus musculus with 6 samples.

Results

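The genes described here are 8 genes that mark striatal projection neurons, also called medium spiny neurons: Ppp1r1b, Adora2a, Drd2, Rgs9, Penk, Pdyn, Tac1 and Pde10a. They were chosen by symbol, and all 8 were found among the 23366 genes of the expression table and passed the filter of the test. RNA was sequenced from cortical tissue of 3 mice 10 days after microglia depletion, named A4, A5 and A6, and of 3 control littermates (A1, A2 and A3), all C57BL/6, with 1 library per mouse. Depleted mice carried CX3CR1-Cre ERT2+/- and iDTR+/-, by which tamoxifen induces the diphtheria toxin receptor in cells that use the CX3CR1 promoter, and control mice carried CX3CR1-Cre ERT2+/- alone. Both genotypes received tamoxifen, and the study's methods do not make plain whether the controls also received the toxin. The mice were matched for age and sex according to the methods, though the Y-linked genes set A4 apart, and their age is not given in the sources used here. The question put to these data was whether genes of striatal projection neurons differed between the groups in tissue labelled as cortex.

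Projection neurons are the main cell type of the striatum, which lies directly beneath the cortex, and they use GABA as their transmitter. Neurons of the direct pathway are known for the dopamine receptor Drd1 and the peptide genes Tac1 and Pdyn, and neurons of the indirect pathway for Drd2, the adenosine receptor Adora2a and the peptide gene Penk. Dopamine and adenosine change cAMP in these cells, and the phosphoprotein encoded by Ppp1r1b, the phosphodiesterase Pde10a and the G protein regulator Rgs9 act on the signal downstream. The peptide genes and Ppp1r1b are also used by some cortical neurons, whereas Adora2a and Drd2 are known as strongly enriched in the striatum within the forebrain.

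Values are in FPKM, fragments per kilobase of transcript and sequencing depth, and each control library held about 14720000 to 20140000 fragments, as estimated from the spacing of low FPKM values, and each depleted library about 10640000 to 13740000. For A5 an estimate of 7120000 scored nearly as high. Depleted mouse A4 stood apart from the other mice: 12.8% of the 14385 genes tested lay at least 0.5 on the log2 scale from the control mean in A4, against 5.85% in A5 and 7.64% in A6. In A4 the 9 interferon response genes summed to 389 FPKM, against 70.4 and 66.9 in A5 and A6 and 21.4 to 33.1 in control mice, and 4 Y-linked genes summed to 5.56 FPKM, against at most 0.16 in each other mouse, while Xist, of the inactive X chromosome, was at 4.74 FPKM in control mouse A3 and at 30.9 to 46.7 FPKM in the other mice. Log2 fold changes of the 8 genes and of most named pathway genes are therefore given with and without A4. The tissue label was checked against markers: all 12 genes of cortical glutamatergic neurons were detected in every mouse, and so were Hcrt and Pmch of the hypothalamus. Hcrt was at 18.6 to 28.4 FPKM in control mice and at 8.12 to 13.3 FPKM in depleted mice. Its groups did not overlap, as in 9.38% of all genes tested, counting those lower in depleted mice. Pmch was at 45.4 to 66.9 and at 30.95 to 47.9 FPKM, with overlap. Of the 8 hypothalamus genes, 4 were lower and 4 higher in depleted mice. The part of such tissue in the values of the 8 striatal genes was not tested.

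No difference between depleted and control mice passed the test in limma, a linear model over all genes, for any of the 8 genes: 0 of 8 had an adjusted p-value under 0.1, the threshold used here, and 0 of 8 an unadjusted one under 0.05. Over all genes tested, 0.0278% passed the first threshold and 10.5% the second. Of the 9 interferon response genes, 0 passed the first threshold and 9 the second. The largest difference among the 8 was that of Adora2a, which was 0.39 lower in depleted mice on the log2(FPKM + 1) scale (adjusted p = 0.540 in limma). In 6 of the 8 genes, A4 had the lowest value of all 6 mice, while A5 and A6 stayed close to the controls. Ppp1r1b and Pdyn did not share this, and were in A4 above the control mean. On the log2(FPKM + 1) scale used throughout, fold changes of genes with low FPKM are understated.

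The receptors showed the lowest relative levels in A4. Drd2 encodes the dopamine receptor of the indirect pathway, which inhibits adenylyl cyclase, and lies on chromosome 9 of GRCm38 from 49340627 to 49408177. Its levels were 10.1, 10.3 and 14.2 FPKM in the control mice A1 to A3, against 4.88 in A4, 12.8 in A5 and 11.1 FPKM in A6. A4 was below every other mouse, and A5 and A6 lay within the range of the controls, so that the groups overlapped. Control mice averaged 11.5 ± 2.30 FPKM and depleted mice 9.59 ± 4.16 FPKM (SD, n = 3 each), and the log2 fold change was -0.32 with a standard error of 0.29 (limma adjusted p = 0.719). The 95% interval of this difference ran from -0.995 to 0.35. Without A4 the log2 fold change was 0.058, of opposite sign. Drd2 has a single annotated transcript of 2547 bases, for which the level in A4 stands for about 171 fragments, with a counting error of 7.65%, and the levels in the other mice for about 317 to 659.

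Adora2a, on chromosome 10 from 75316877 to 75334784, encodes the adenosine receptor that raises cAMP in the indirect pathway. It stood at 14.4, 14.1 and 12.8 FPKM in the control mice A1 to A3, against 6.70 in A4, 12.9 in A5 and 12.3 FPKM in A6. A4 again lay far below the other 5 mice, and A6 was just below the lowest control, A3, whereas A5 was just above it. Control mice averaged 13.8 ± 0.839 FPKM and depleted mice 10.6 ± 3.42 FPKM (SD, n = 3 each). The 95% interval of the log2 difference ran from -0.87 to 0.085, and without A4 the log2 fold change was -0.12, with an interval from -0.32 to 0.083. A4 had 48.6% of the control mean of Adora2a and 42.3% of that of Drd2.

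The start of Drd2 is shown beside that of Pdyn because these are the genes with the lowest level in A4, relative to control mice, and with a level in A4 inside the range of the other mice. The sequences are the 250 bases before the RefSeq start of each gene, in the direction of transcription and from GRCm38.p6. Capitals mark matches on either strand to GGGCGG, the core of a GC box, to CCAAT, and to TGACG, the core of the cAMP response element.
Drd2, chr9:49340153-49340402, plus strand: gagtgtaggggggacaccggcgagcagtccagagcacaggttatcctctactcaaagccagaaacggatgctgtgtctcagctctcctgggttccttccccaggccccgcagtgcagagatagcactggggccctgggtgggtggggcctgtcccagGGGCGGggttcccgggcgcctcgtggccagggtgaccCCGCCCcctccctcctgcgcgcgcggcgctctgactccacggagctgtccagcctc
Pdyn, chr2:129699939-129700188, minus strand: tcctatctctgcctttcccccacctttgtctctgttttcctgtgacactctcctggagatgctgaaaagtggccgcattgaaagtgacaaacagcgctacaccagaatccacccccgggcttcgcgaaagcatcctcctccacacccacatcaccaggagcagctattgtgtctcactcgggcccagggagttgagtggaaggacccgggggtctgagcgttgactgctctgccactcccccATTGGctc

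The Drd2 window held GGGCGG 2 times, 93 and 56 bases before the start, and the Pdyn window held CCAAT 1 time, on the opposite strand and 8 bases before the start. GGGCGG occurs in 32.7% and CCAAT in 33.8% of all 32851 promoter windows of this length. TGACG, found in 17.8% of all windows, had no match in either, no match overlapped another, and the full element TGACGTCA, which holds TGACG and is found in 1.55%, had none in the 7 windows listed for 5 of the 8 genes. Among these 5 genes, TGACG was matched in Tac1, 2 times, on the opposite strand. These matches describe letters in a window and show no binding.

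The signalling genes downstream of the receptors did not share 1 direction in A4. Ppp1r1b, whose product inhibits protein phosphatase 1 when phosphorylated, lies on chromosome 11 from 98348404 to 98357796. Its levels were 120.4, 145.9 and 132.8 FPKM in the control mice A1 to A3, against 159.1 in A4, 146.1 in A5 and 130.9 FPKM in A6. Here A4 was the highest mouse, A5 lay level with the highest control, A2, and A6 lay among the controls. The log2 fold change was 0.13, with a 95% interval from -0.097 to 0.35 (adjusted p = 0.667 in limma), and 0.060 without A4. An annotated gene on the opposite strand, 1700003D09Rik, shares 15.7% of the exonic bases of Ppp1r1b and was at 0.83 to 1.82 FPKM. The sources used here do not say whether strand was used in counting.

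Rgs9, a regulator that speeds the shut-off of G proteins in striatal neurons, lies on chromosome 11 from 109225355 to 109298129. It stood at 29.3, 30.9 and 31.4 FPKM in the control mice A1 to A3, against 20.9 in A4, 32.05 in A5 and 29.5 FPKM in A6. The 5 mice other than A4 were close together, and A4 was well below the lowest of them. The control level was 30.5 ± 1.10 FPKM (SD, n = 3), the depleted level 27.5 ± 5.84 FPKM (SD, n = 3), and the log2 fold change -0.17 (95% interval -0.50 to 0.16, adjusted p = 0.700 in limma), or 0.010 without A4.

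Pde10a, a phosphodiesterase that breaks down cAMP and cGMP, lies on chromosome 17 from 8525372 to 8986648. Its levels were 15.9, 19.1 and 17.3 FPKM in the control mice A1 to A3, against 11.4 in A4, 20.7 in A5 and 19.1 FPKM in A6. While A4 was the lowest mouse, A5 was above all 3 control mice and A6 level with the highest of them. The log2 fold change was -0.067 with A4 (95% interval -0.52 to 0.38) and 0.18 without it (95% interval -0.036 to 0.41, adjusted p = 0.456 in limma).

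Of the peptide genes, Penk and Tac1 were lowest in A4 and Pdyn was not. Penk, the precursor of the enkephalins, had the second highest mean level of the 8 genes per length and lies on chromosome 4 from 4133531 to 4138819. It stood at 116.8, 128.5 and 134.3 FPKM in the control mice A1 to A3, against 96.9 in A4, 129.7 in A5 and 135.2 FPKM in A6. The lowest mouse was A4, at 76.6% of the control mean, and the highest A6. The groups were at 127 ± 8.95 and 121 ± 20.7 FPKM (SD, n = 3 each), a log2 fold change of -0.081 (95% interval -0.37 to 0.21), or 0.067 without A4. A gene of the opposite strand, A830012C17Rik, shares 14.3% of the exonic bases of Penk and is not a symbol of the table.

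Tac1, the precursor of substance P, on chromosome 6 from 7554879 to 7565834, stood at 46.7, 45.65 and 54.1 FPKM in the control mice A1 to A3, against 38.3 in A4, 52.1 in A5 and 54.45 FPKM in A6. The lowest mouse was A4 and the highest A6, as for Penk. The log2 fold change was -0.027 (95% interval -0.34 to 0.28), and 0.13 without A4. The ratio of Penk to Tac1 FPKM was 2.53 in A4 and between 2.48 and 2.81 in the other mice, so that their proportion in A4 lay inside the range of the other mice.

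Pdyn, the precursor of the dynorphins, on chromosome 2 from 129686565 to 129699844, had the lowest level of the 8 genes as a mean over the 6 mice, though in A4 Drd2 and Adora2a were lower. It stood at 9.58, 9.84 and 7.97 FPKM in the control mice A1 to A3, against 10.1 in A4, 10.5 in A5 and 7.94 FPKM in A6. The highest mouse was A5 and the lowest A6, with A4 close to A5. The log2 fold change was 0.050 (95% interval -0.25 to 0.35, adjusted p = 0.916 in limma), and 0.0038 without A4.

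**Figure D1:**
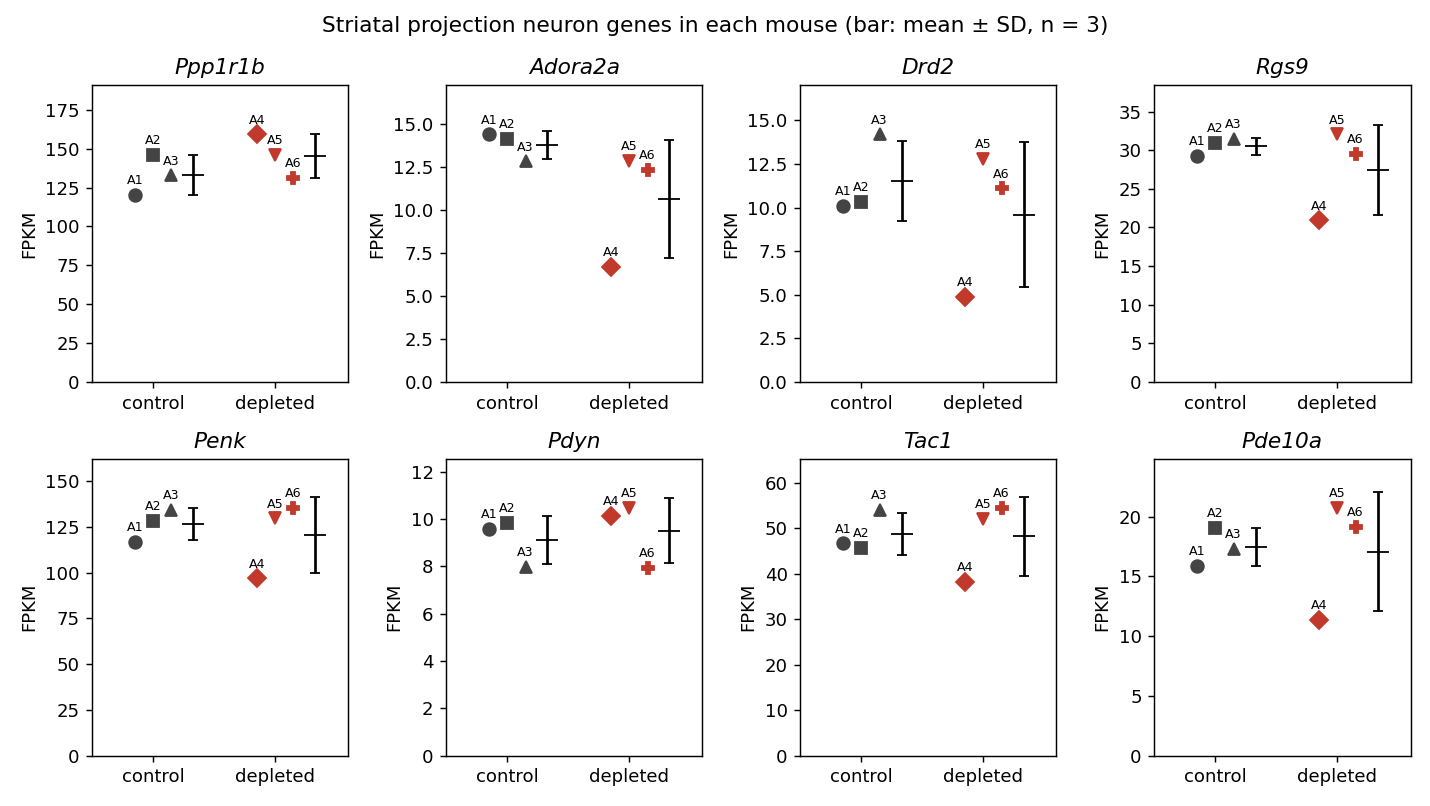
FPKM of each gene (vertical axes, from 0) in the 3 control and 3 depleted mice, with the mean and SD of each group (n = 3) at the right of its points. A4 is the lowest point in 6 panels and the highest in that of Ppp1r1b, at 159 FPKM.

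The groups overlapped in all 8 genes, whereas 17.6% of all genes tested had groups that did not overlap. A two-sided exact permutation test on the group means, which cannot go below 0.1 with 3 mice against 3, gave p-values from 0.2 for Adora2a to 1 for Tac1 and Pde10a over these 8 tests. The median log2 fold change of the 8 genes was -0.074, and that of all genes tested -0.0085. Without A4 it was 0.059, with 7 of 8 genes above 0 and 0 of 8 at an adjusted p-value under 0.1 or an unadjusted p-value under 0.05 in limma. Over all genes tested, 0.0278% and 13.2% passed these thresholds without A4. In bulk tissue, fewer cells of a type and less RNA per cell cannot be told apart.

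In order of level per length, averaged over the 6 mice, Ppp1r1b (139 FPKM) and Penk (124 FPKM) were followed by Tac1 (48.5 FPKM), Rgs9 (29.0 FPKM), Pde10a (17.3 FPKM), Adora2a (12.2 FPKM), Drd2 (10.6 FPKM) and Pdyn (9.32 FPKM). The levels of Ppp1r1b and Penk overlapped between mice, as did those of Adora2a, Drd2 and Pdyn, and their order was not the same in every mouse. Within every mouse Tac1 lay above Rgs9, Rgs9 above Pde10a and Pde10a above Adora2a, although the ranges of Pde10a and Adora2a over all mice overlapped.

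Mouse by mouse, the 8 genes lay at a median of -0.45 from the control mean in A4, on the log2 scale, against 0.12 in A5 and -0.028 in A6. A comparison by the rank of A4 was chosen after the values were seen. By it, A4 was the lowest of the 6 mice in 6 of the 8 genes, against 28.0% of all genes tested, and the highest in 1, against 26.8%. A4 lay at least 0.5 below the control mean in 4 of the 8 genes, namely Drd2 (-1.08), Adora2a (-0.94), Pde10a (-0.57) and Rgs9 (-0.53), and in 6.10% of all genes tested. Penk (-0.38) and Tac1 (-0.34) followed. Every value of the 8 genes in A5 and A6 was within 0.25 of the control mean.

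Proportions within the 8 genes were also unlike in A4, which is given as a description. The ratio of Rgs9 to Ppp1r1b was 0.131 in A4 and between 0.212 and 0.243 in the other mice. The ratio of Penk to Pdyn was 9.56 in A4 and from 12.2 to 17.0 elsewhere. Adora2a and Drd2, both of the indirect pathway, kept a ratio of 1.37 in A4, inside the range of 0.905 to 1.43 of the other mice.

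**Figure D2:**
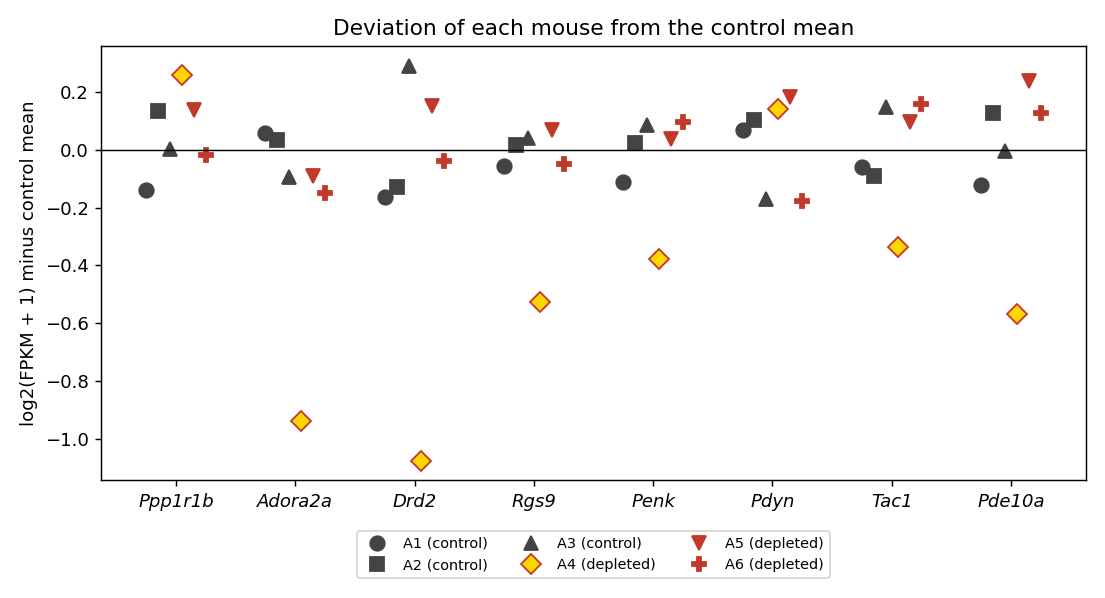
Deviation of each mouse from the control mean in log2(FPKM + 1) (vertical axis) for the 8 genes (horizontal axis), with 1 symbol per mouse and A4 in yellow. A4 lies from -1.08 for Drd2 to 0.26 for Ppp1r1b, while A5 and A6 stay within 0.25 of the control mean.

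In a list of 25 other genes of striatal projection neurons, A4 was again often the lowest mouse, and no difference between the groups passed the test. All 25 were tested, and 0 passed the adjusted threshold in limma, against 0.0278% of all genes tested. The unadjusted threshold was passed by 0, against 10.5%, and 0 had groups without overlap, against 17.6%. The median log2 fold change was -0.069, and 0.012 without A4. The lowest mouse was A4 in 20 of the 25 genes, against 28.0% of all genes tested. The most negative fold change of the list was that of Rasgrp2, which activates Rap GTPases, at 17.3 ± 1.38 and 13.4 ± 3.44 FPKM (SD, n = 3 each), with a log2 fold change of -0.37 (adjusted p = 0.488 in limma), or -0.17 without A4. The largest was that of the calcium sensor Hpca, at 0.17, or -0.0044 without A4, which stood at 589 FPKM in A4 and from 386 to 443 FPKM in the other mice.

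In the lists of further direct and indirect pathway genes, the median deviation of A4 was -0.088 and -0.13. That of A5 was 0.00099 and -0.017, and that of A6 -0.089 and -0.26, so that A4 did not stand apart in these lists. Drd1, listed under its older symbol Drd1a and encoding the dopamine receptor that raises cAMP, stood at 9.29, 11.1 and 10.6 FPKM in the controls, against 9.11 in A4, 12.3 in A5 and 11.4 FPKM in A6. Here A4 lay just below A1, and the log2 fold change was 0.069 (adjusted p = 0.873 in limma), or 0.18 without A4. The ratio of Drd2 to Drd1 was 0.536 in A4 and from 0.932 to 1.33 in the other mice. Over the 8 genes of the direct pathway list, which does not hold Tac1 or Pdyn, A4 was the lowest mouse in 2. The fold changes ran from -0.35 for the transcription factor Ebf1, at 0.16 to 1.05 FPKM, to 0.095 for Sfxn1, a mitochondrial serine transporter, and were -0.27 and 0.013 without A4. Of the 4 further genes of the indirect pathway, A4 was the lowest in 1, Gpr52, and the fold changes ran from -0.33 for the receptor Gpr6, at 1.78 to 4.76 FPKM, to -0.017 for Plxdc1, and were -0.33 and -0.17 without A4. In both lists 0 genes passed the adjusted and 0 the unadjusted threshold in limma. Whether the distance of A4 differed between the lists was not tested.

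**Figure D3:**
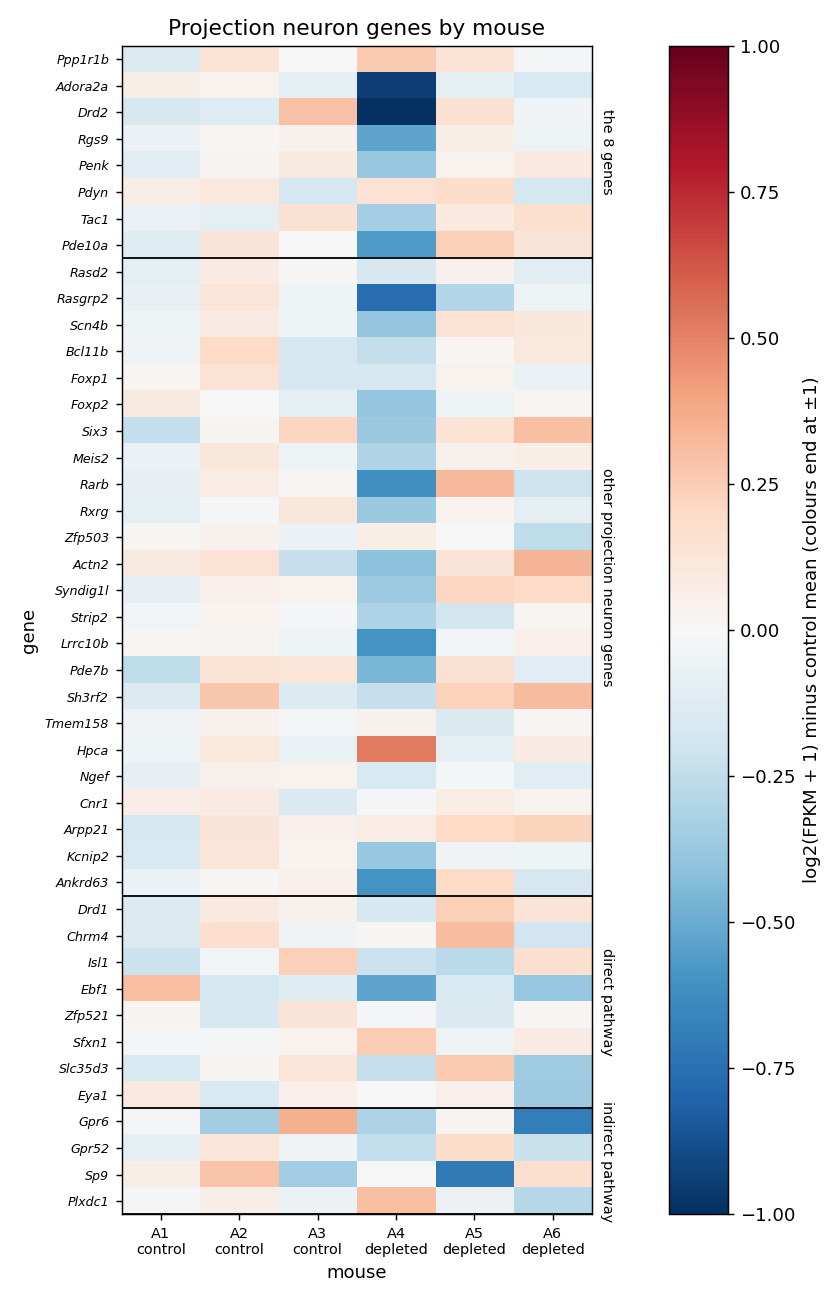
Deviation from the control mean in log2(FPKM + 1), as colour, for the 8 genes and other genes of projection neurons (vertical axis) in the 6 mice (columns). The column of A4 is blue (lower) for most genes of the first and second blocks, and red (higher) for Ppp1r1b, Pdyn and Hpca. A5 and A6 stay within 0.25 of the control mean in the first block. In the indirect pathway block Gpr6 is at -0.69 in A6 and Sp9 at -0.71 in A5.

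Genes of dopamine and cAMP signalling had A4 as the lowest mouse in 13 and as the highest in 6. Of 29 genes in the list 27 were tested, and Drd3 and Drd4 were below the filter. None passed the adjusted threshold in limma, and the unadjusted one was passed by 1 gene above and 1 below the control level, against 4.79% and 5.74% of all genes tested. Groups did not overlap in 2 genes with higher and 2 with lower levels in depleted mice, against 8.21% and 9.38%. The median log2 fold change was -0.040, and 0.011 without A4. Gnal, Gng7 and Adcy5 encode the olfactory-type G protein, a gamma subunit and the adenylyl cyclase of striatal neurons, and lay at 66.4%, 65.3% and 60.9% of their control means in A4. Adcy5 stood at 40.04, 40.5 and 41.7 FPKM in the controls, against 24.8 in A4, 40.6 in A5 and 40.15 FPKM in A6, so that A4 alone lay apart. Its log2 fold change was -0.24 (adjusted p = 0.642 in limma), the most negative of the list, and -0.013 without A4. The largest was that of the phosphodiesterase Pde4b, at 32.7 ± 0.496 and 39.6 ± 5.81 FPKM (SD, n = 3 each), with a log2 fold change of 0.26 (adjusted p = 0.451 in limma), or 0.14 without A4. Pde1b, a calcium-dependent phosphodiesterase of these neurons, was at 97.2% of its control mean in A4.

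Peptide receptors and processing enzymes followed no common direction. Of 11 genes 10 were tested, with the opioid receptor Oprm1 below the filter, and none passed the adjusted threshold in limma. The unadjusted one was passed by 1 gene above and 2 below the control level, against 4.79% and 5.74% of all genes tested. The most negative fold change was that of Pcsk1n, which encodes an inhibitor of prohormone convertase 1, at 271, 217 and 254 FPKM in the controls, against 189 in A4, 207 in A5 and 164 FPKM in A6. Every depleted mouse was below every control mouse, as in 2 of the 10 genes tested of this list and in 9.38% of all genes tested. The log2 fold change of Pcsk1n, -0.40, had a standard error of 0.11 (limma adjusted p = 0.370) and was -0.42 without A4. The largest was that of Scg5, a chaperone of prohormone convertase 2, at 0.25 (adjusted p = 0.451 in limma), or 0.16 without A4. Of the enzymes that process the peptides, Pcsk2 and Cpe had fold changes of -0.017 and 0.071, and of -0.048 and 0.011 without A4. Pcsk1 and Pam, also processing enzymes, were lowest in A4, at 66.0% and 83.7% of their control means. Their fold changes were -0.12 and 0.033, and 0.083 and 0.18 without A4. The median over the list was 0.0083, and 0.012 without A4.

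**Figure D4:**
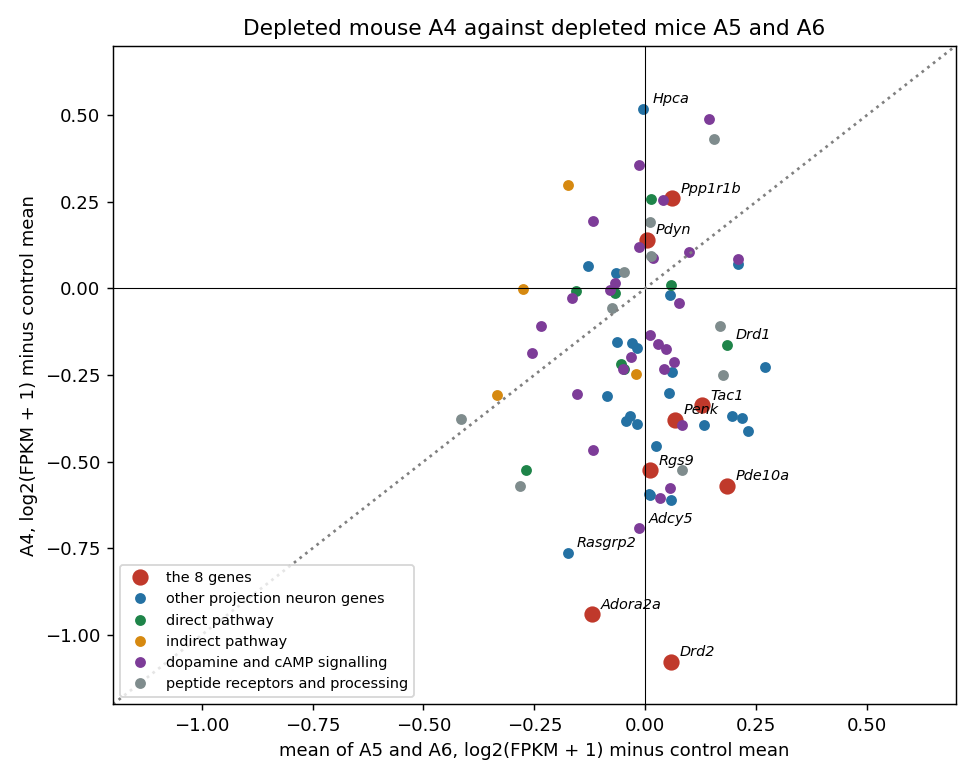
Deviation from the control mean in log2(FPKM + 1) in A4 (vertical axis) against the mean deviation of A5 and A6 (horizontal axis) for the 8 genes and tested genes of 5 lists, with equal values on the dotted line. Drd2 and Adora2a lie lowest in A4, at -1.08 and -0.94, and near 0 on the horizontal axis.

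Markers of other cell types and regions were measured in the same mice, and their part in the values of A4 was not tested. The 12 cortical glutamatergic genes summed to 1015 to 1176 FPKM in the controls, against 1034 in A4, 1065 in A5 and 1049 FPKM in A6, and A4 was the lowest mouse in 7 of them. The largest difference in this list was that of Neurod6, at -0.32 (adjusted p = 0.451 in limma). The 11 interneuron genes summed to 692 to 726 FPKM in the controls, against 608 in A4, 706 in A5 and 708 FPKM in A6. In 5 of them A4 was the lowest and in 1 the highest. Sst was at 184 FPKM in A4, against 241 to 290 FPKM in the other mice. Crh was at 1.36 FPKM in A4, against 3.38 to 4.02 FPKM in the other mice. This was 37.9% of its control mean, a lower share than the 42.3% of Drd2. The largest difference between the groups in this list was that of Htr3a, at 0.34 (adjusted p = 0.447 in limma). For the 7 thalamic genes the sums were 72.1 to 86.05 FPKM in the controls, against 62.1 in A4, 71.7 in A5 and 72.9 FPKM in A6. In 5 of these 7 genes A4 was the lowest mouse, among them Lef1, at 41.3% of its control mean, and in 1 the highest. The largest difference between the groups was that of Prkcd, at -0.32. The thalamic list stood in A4 at a median of -0.41 from the control mean, a distance near the -0.45 of the 8 genes. So did the olfactory bulb list, with 2 genes tested, at -0.46. The choroid plexus list stood at -0.49 in A4, and also at -0.47 in A5 and -0.61 in A6.

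Genes of dopamine and cholinergic neurons, which meet projection neurons in the striatum, were low or scattered, and lists of microglia and of other regions were also measured. The 6 dopamine neuron genes, among them Th and Slc6a3, summed to 19.8 to 32.8 FPKM in the controls, against 30.8 in A4, 24.7 in A5 and 22.7 FPKM in A6. Of its 4 tested genes A4 was the lowest in 0, and the largest difference was that of Ddc, at 0.16. The 4 cholinergic genes summed to 3.14 to 4.73 FPKM in the controls, against 3.12 in A4, 5.46 in A5 and 4.22 FPKM in A6, with A4 the lowest in 2 genes and Lhx8 (0.099) as the largest difference. The 8 microglia genes summed to 201 FPKM in A4, above the 136 to 176 FPKM of A5 and A6 and the 125 to 149 FPKM of the controls, and their largest difference was that of Fcrls, at -0.90 (adjusted p = 0.370 in limma). The choroid plexus, hypothalamus, olfactory bulb and hippocampus lists summed in A4 to 128, 128, 5.41 and 17.3 FPKM, in A5 to 122, 144, 7.35 and 14.2 FPKM, in A6 to 137, 162, 6.50 and 17.5 FPKM, and in control mice to 242 to 418, 108 to 490, 6.17 to 8.21 and 18.5 to 22.7 FPKM. Their largest differences were those of Ttr (-1.91), Agrp (1.42), Cdhr1 (-0.23) and C1ql2 (-0.38), none past the adjusted threshold in limma. All 8 choroid plexus genes had a log2 fold change below 0, as had 7478 of all 14385 genes tested. The largest interferon response difference was that of Ifit3, at 2.30 (adjusted p = 0.370 in limma), or 1.53 without A4. All 9 interferon response genes were higher in depleted mice without overlap of the groups, against 8.21% of all genes tested. Even so, 0 of these 9 passed the adjusted threshold in limma. In control mouse A3 the hypothalamus sum of 490 FPKM was mainly that of the peptide gene Pomc, at 269 FPKM.

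**Figure D5:**
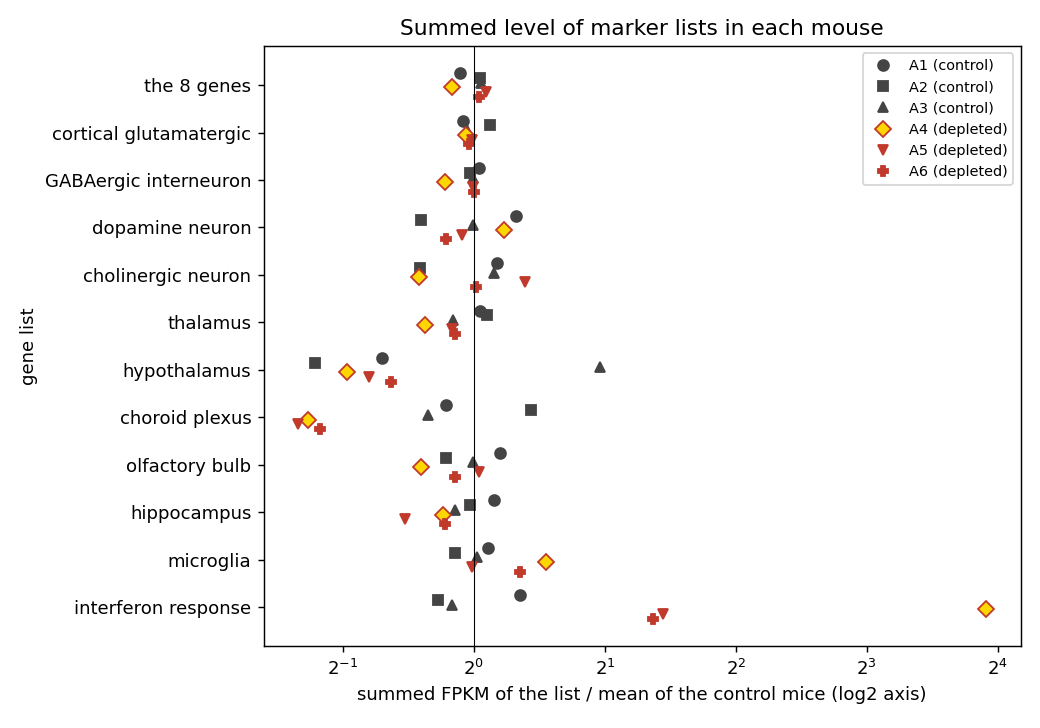
Summed FPKM of each gene list divided by the mean of the 3 control mice (horizontal log2 axis) for the 6 mice, with A4 in yellow. The 8 genes sum to 348 FPKM in A4, against 363 to 405 FPKM in control mice, a sum in which Ppp1r1b and Penk weigh most, and the interferon response genes are far to the right in A4.

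The distance of A4 was also measured after each mouse's log2 values were corrected for the GC content or the length of transcripts. The median deviation of the 8 genes in A4 was -0.44 under either correction, and Drd2 stood at -1.04 and -1.05. With the GC correction Adora2a stood in A4 at -0.80 and Ppp1r1b at 0.35, and with the length correction at -0.96 and 0.26. The GC correction moved the log2 fold change between the groups to 0.21 for Ppp1r1b, -0.27 for Adora2a, -0.042 for Penk and -0.059 for Tac1, while the length correction moved that of Pde10a to -0.045. The part of depth in the values of A4 was not tested.

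The genes whose levels over the 6 mice were nearest to the mean pattern of the 8 genes were Ccpg1, Cacna2d3, Gypc, Morn4 and Mfsd8. Likeness was the root mean square distance between log2(FPKM + 1) values centred on the control mean, over 6 mice, and ran from 0.027 for Ccpg1 to 0.037 for Mfsd8. Ccpg1 stood at 39.1, 40.9 and 41.0 FPKM in the controls, against 29.5 in A4, 43.0 in A5 and 41.9 FPKM in A6. The calcium channel subunit gene Cacna2d3 stood at 28.0, 29.8 and 28.5 FPKM in the controls, against 21.0 in A4, 31.6 in A5 and 29.2 FPKM in A6. Of the 8 genes themselves, Rgs9 was nearest to their mean, at 0.046, with 21 other genes of the table nearer, and Drd2 was farthest, at 0.30.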

How the data were processed

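Per the labels and the study's methods, poly(A) libraries of 6 mice were sequenced as 75 bp paired-end reads, aligned with TopHat to mm9 and quantified with RSEM on known transcripts. Versions and annotation are not given in the sources used here. The authors deposited FPKM values per gene, scaled with TMM factors and rounded to 2 decimals. Raw counts were not used here, so the study's count test was not repeated. With that test the study reported far more genes at an adjusted p-value under 0.1 than the 4 called here. A gene that did not pass here can therefore have passed there. Values were taken to log2(FPKM + 1), 14385 genes averaging 0.5 FPKM or more were tested with limma 3.58.1 in R 4.3.3 (eBayes with trend) without covariates, and p-values were Benjamini-Hochberg adjusted over all of them, with a threshold of 0.1. P-values set the difference between the groups against the spread between mice, moderated across genes. On simulated data in which 200 of 14385 genes differed by 1 on the log2 scale, 84% were recovered, with 10.6% false calls. The simulated spread was independent between mice and the shift equal in all 3 depleted mice, without a mouse like A4. The share recovered therefore does not carry over to these data, where even Ifit3, at 2.30, did not pass. Differences under 1, as in all 8 genes, were not simulated.

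Fragment numbers came from the spacing of low values in 1959 genes with a single transcript of 400 to 1500 bases. The error was at most 0.267% in simulated libraries. The error in the libraries of these mice was not tested, and for A5 estimates of 10640000 and 7120000 fragments scored nearly alike. Positions, GC content and length are from GENCODE M21 (GRCm38), matched by symbol for 23024 of 23366 genes, and promoters from RefSeq (GRCm38.p6), where 5 of the 8 genes matched. Of the 8 genes, only Rgs9 shares 75-base windows with other genes (0.253%). Other steps used scipy 1.17.1, pandas 2.3.3 and numpy 2.4.6 in Python 3.11.15, with matplotlib 3.10.9 for plots.

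The 8 genes and 16 other lists were chosen with earlier results of these data known. Named genes were the 8, Drd1, Adcy5, a further gene that is not reported here, the extremes of each list and the 5 nearest patterns. Gnal, Gng7, Pde1b, Pcsk1, Pcsk2, Cpe, Pam, Gpr52, Sp9, Sst, Crh, Lef1, Th, Slc6a3, Hcrt, Pmch and Pomc were named in view of their values. The alternatives tried were leaving out each mouse, a pseudocount of 0.1, other filters and scalings, other variance models, a threshold of 0.05, array weights, and corrections for GC content and length, the last pair added after seeing the data.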

Additional observations from a re-analysis of the deposited data

How the results depend on the processing

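The count of the 8 genes with an adjusted p-value under 0.1 in limma was 0 under every alternative, as was that of the pathway lists. Adora2a had the lowest adjusted p-value over the alternatives, 0.320 without A5, where 1 of the 8 genes had an unadjusted p-value under 0.05. Without A5 the same held for 2056 of all 14385 genes tested, so this count does not set the 8 genes apart. Over all genes, 4 passed the adjusted threshold, 2 with eBayes without trend and 20 with array weights. With 1 mouse left out, from 2 to 29 passed it (29 without A5, 8 without A6, 2 without A1). The median log2 fold change of the 8 genes ran from -0.18 to 0.059 with 1 mouse left out, above 0 without A4, and was 0.024 with array weights. Array weights turned the sign of Penk (0.0096), Tac1 (0.054) and Pde10a (0.091). Leaving out 1 mouse gave ranges of -0.56 to 0.058 for Drd2, -0.29 to 0.010 for Rgs9, -0.17 to 0.067 for Penk, -0.036 to 0.16 for Pdyn, -0.12 to 0.13 for Tac1 and -0.22 to 0.18 for Pde10a. The cause was not tested. Ppp1r1b (0.058 to 0.20) and Adora2a (-0.54 to -0.12) kept their direction with 1 mouse left out, with Ppp1r1b at 0.058 without A1 and 0.060 without A4. No paired analysis was possible because the labels give the groups no shared replicate numbers. With 3 mice a group the intervals of the 8 genes are wide, from -0.995 to 0.35 for Drd2.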
